A study of Mus musculus with 16 samples.

Results

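Ctse and Cpne5 are the 2 genes of 18820 measured described here, chosen by their higher levels in fasted vanin-1 knockout liver than in fasted wild type liver on these same arrays. Each was read from 1 probe set, 10349648 for Ctse and 10449551 for Cpne5, and each of those was the only probe set of the table that named the gene. The study measured liver RNA of male C57Bl/6J mice aged 14 to 16 weeks on 16 whole-transcript arrays, 4 per group. The groups were vanin-1 knockout mice fasted for 24 h, wild type mice fasted for 24 h, knockout mice fed chow and wild type mice fed chow, abbreviated below as fasted KO, fasted WT, fed KO and fed WT. The labels call the knockout vanin-1 null on a C57Bl/6J background and do not say how the allele was made. Levels are log2 RMA intensities, given as mean ± SD with n = 4 arrays in each group, and an array is named by its group and title number. Precision is bounded by having 4 arrays in each group.

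Ctse encodes cathepsin E, an aspartic protease of the pepsin family that works in endosomes and related compartments rather than in the mature lysosome, where its relative cathepsin D acts. It is known from gastric epithelium, red cell precursors and antigen-presenting cells, and hepatocytes are not among its classical sites. Cpne5 encodes copine 5, one of a family of cytosolic proteins that carry a pair of C2 domains and move to membranes when calcium rises. Copine 5 is best known from the nervous system. Vanin-1, the product of the deleted gene, is a pantetheinase that releases cysteamine and pantothenate, and its gene is a target of the fatty acid sensor PPARα in liver.

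Across the series the array medians lay between 5.19 and 5.29 and the lower quartiles between 3.72 and 3.79. The deleted gene Vnn1 lay at 3.98 ± 0.30 in fasted KO against 10.81 ± 0.69 in fasted WT, and at 3.89 ± 0.12 in fed KO against 8.91 ± 1.61 in fed WT (SD, n = 4), so every array carried the genotype on its label. All 10 measured hepatocyte markers lay above the array median on all 16 arrays, as the tissue label states. Array fasted WT 4 stood apart through pancreatic acinar transcripts, with a summed linear intensity of 4158 over 8 marker genes, against 163 to 173 on the other fasted WT arrays. Whether each array came from its own mouse is not said in the labels, and p-values therefore speak only of the variation among these samples, which may be technical.

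Ctse lay far above its other levels on all 4 fasted KO arrays. Its values were 8.47, 8.72, 8.17 and 8.54 on fasted KO 1 to 4, against 6.18, 5.88, 6.61 and 6.26 on fasted WT 1 to 4. The fed arrays gave 6.57, 5.09, 6.19 and 6.07 on fed KO 1 to 4, against 6.65, 6.32, 4.81 and 5.82 on fed WT 1 to 4. The lowest fasted KO array stood 1.52 log2 units above the highest of the other 12 arrays, and the other 3 groups overlapped one another. By group mean the order was fasted KO (8.47 ± 0.23), fasted WT (6.23 ± 0.30), fed KO (5.98 ± 0.63) and fed WT (5.90 ± 0.80; SD, n = 4 in each). Only the step below fasted KO exceeded the spread of the arrays. Ctse ranged over 1.48 log2 units in fed KO and 1.84 in fed WT, and over 0.55 in fasted KO and 0.73 in fasted WT. The wider fed ranges rested largely on 1 low array each, fed KO 2 (5.09) and fed WT 3 (4.81). The other arrays ran from 6.07 to 6.57 in fed KO and from 5.82 to 6.65 in fed WT.

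Cpne5 showed the same separation on a lower scale. Its values were 6.13, 5.35, 4.98 and 6.13 on fasted KO 1 to 4, against 4.35, 4.22, 4.27 and 4.34 on fasted WT 1 to 4. The fed arrays gave 3.99, 4.10, 4.07 and 4.16 on fed KO 1 to 4, against 4.13, 4.14, 4.16 and 4.10 on fed WT 1 to 4. On all 12 arrays outside fasted KO, Cpne5 lay below that array's own median, and on fasted KO arrays 1, 2 and 4 it lay above it. The lowest fasted KO array stood 0.64 log2 units above the highest of the other 12. The order of the means was fasted KO (5.65 ± 0.58), fasted WT (4.30 ± 0.06), fed WT (4.14 ± 0.02) and fed KO (4.08 ± 0.07; SD, n = 4 in each). The fed groups overlapped, while the lowest fasted WT array (4.22) lay just above the highest fed array (4.16). Here the spread was widest in fasted KO, at 1.15 log2 units between the highest and the lowest array, against 0.12 in fasted WT, 0.17 in fed KO and 0.06 in fed WT.

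**Figure D1:**
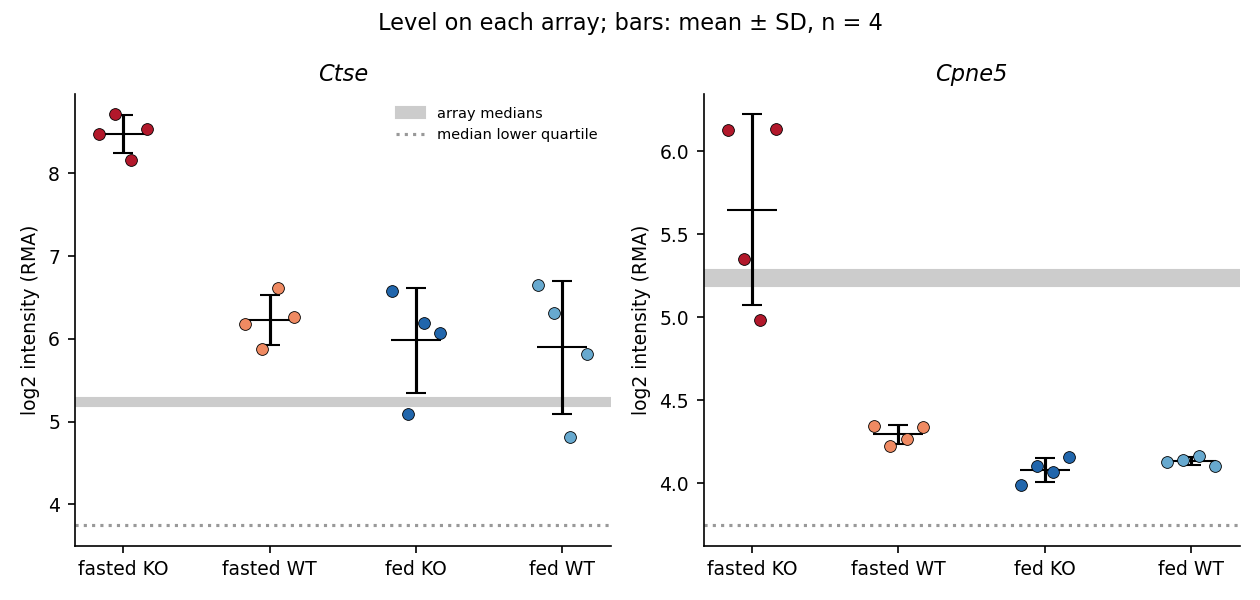
Levels of Ctse (left) and Cpne5 (right) as log2 RMA intensity on each of the 16 arrays, by group, with the mean ± SD of 4 arrays; the grey band spans the array medians and the dotted line is the median of the arrays' lower quartiles. All 4 fasted KO points lie above every other point for both genes, by 1.52 log2 units for Ctse and 0.64 for Cpne5.

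The arrays within fasted KO did not rank alike for both genes. Fasted KO 3 was the lowest array for both, but Ctse was highest on fasted KO 2 and Cpne5 on fasted KO 1 and 4. Across the 16 arrays the levels of the 2 genes correlated at r = 0.86, a value carried by the separate fasted KO arrays, and across the 12 other arrays r was 0.08. In a whole liver sample, more cells that express a gene and more RNA per cell cannot be told apart.

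The promoter of Cpne5 is shown because Cpne5 lay at a low level in every group but fasted KO, which makes the sequence at its start site of interest. The 300 bases run from 250 before to 50 after the annotated start, at chr17:29237741-29238040 on the minus strand of GRCm38.p6, and are from RefSeq.

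Cpne5 promoter: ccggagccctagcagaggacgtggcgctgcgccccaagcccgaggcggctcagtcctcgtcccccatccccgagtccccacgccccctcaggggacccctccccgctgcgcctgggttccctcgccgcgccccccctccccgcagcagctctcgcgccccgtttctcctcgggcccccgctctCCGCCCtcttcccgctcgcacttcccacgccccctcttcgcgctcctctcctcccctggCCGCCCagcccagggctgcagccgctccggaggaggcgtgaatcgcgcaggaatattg

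Capitals mark matches to the GC box GGGCGG on either strand, which start at bases 184 and 243 of the printed run. The window held 74.7% G and C, against a median of 52.7% over 32851 annotated mouse promoters of the same length, and the GC box occurs in 35.7% of those. The window held 0 matches on either strand to the PPAR response element, searched as 2 copies of AGGTCA in the same direction with 1 base between (present in 0.0396% of promoters), and 0 to the single site AGGTCA, which lies within that element (16.3%). It also held 0 matches to the cyclic AMP response element TGACGTCA (1.79%) and to the TATA box TATAAA (13.6%). These counts say only which letters stand in this window.

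In fasted liver, the comparison by which both genes were chosen, Ctse had a mean 4.73-fold above wild type in the knockout (log2 difference 2.24, SE 0.33). Cpne5 had a mean 2.55-fold above wild type (log2 difference 1.35). Its SE of 0.18 is shared by all groups and is narrow for the spread of Cpne5 in fasted KO (SD 0.58). The fold may understate the difference, because the fasted WT mean lay below the array medians. It lay above the lower quartiles, and no background level was measured. Because the choice used these values, they are a description without a test. In this contrast limma called 3 of 18820 genes (0.0159%) at an adjusted p below 0.05, 2 of them higher (0.0106%), from which nothing is read about the genes chosen here.

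The genes around them in the order of the measured log2 differences are given for scale. Gm15441 stood just above Ctse with a log2 difference of 2.35, the acyl-CoA thioesterase gene Acot2 just below it with 1.59, and the cytochrome gene Cyp2a22 just above Cpne5 with 1.49. Acot1 (1.27), Serpina4-ps1 (1.27), Pdk4 (1.22), which encodes an inhibitor of pyruvate dehydrogenase, Spon2 (1.19) and the lipid droplet gene Cidec (1.10) followed Cpne5. In fasted WT several of these genes varied more between arrays than Ctse (SD 0.30) and Cpne5 (SD 0.06). Gm15441 had an SD of 0.27 in fasted KO against 1.63 in fasted WT, without overlap of the groups. Acot2 had 0.40 against 1.29, with overlapping groups. In fasted KO the SD of Cpne5 (0.58) exceeded those of Gm15441 and Acot2 and was below those of Cyp2a22 (0.72) and Serpina4-ps1 (0.95). In 100 of 18820 genes (0.531%) all 4 fasted KO arrays lay above the other 12 arrays, and of these Ctse had the widest gap and Cpne5 the next. Their ranks rest on the fasted arrays by which both genes were chosen, so they are a description and no separate evidence. Gpat3, a glycerol phosphate acyltransferase gene named after its values were seen, was at rank 3 with a gap of 0.37.

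The fed arrays took no part in the choice of the genes, and between them the genotypes were tested. Ctse lay at 5.98 ± 0.63 in fed KO against 5.90 ± 0.80 in fed WT (SD, n = 4), a log2 difference of 0.08 with SE 0.33 and a 95% confidence interval of -0.61 to 0.78 (limma adjusted p = 0.979). The two-sided exact permutation test gave p = 0.83, and the smallest p possible with 4 arrays a group is 0.0286. Cpne5 lay at 4.08 ± 0.07 in fed KO against 4.14 ± 0.02 in fed WT (SD, n = 4), a log2 difference of -0.06 with SE 0.18 and an interval of -0.44 to 0.33 (limma adjusted p = 0.976, exact permutation p = 0.171). Neither gene passed the test, which does not show that the genotypes were alike. This fit took its error from all 16 arrays, fasted KO included. On the 8 fed arrays alone the SE was 0.39 for Ctse, with an interval of -0.79 to 0.96 (limma adjusted p = 0.980), and 0.07 for Cpne5, with an interval of -0.21 to 0.10 (limma adjusted p = 0.931). Of all genes 1 was called in this contrast (0.00531%), which was Vnn1, and 1084 had an unadjusted p under 0.05.

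The sign of the fed Ctse difference rested on single arrays. Without fed WT 3 it was -0.28 and without fed KO 1 it was -0.11, and with any 1 array left out it ranged from -0.28 to 0.38. Array names carry a number, 5 or 7, that both genotypes share. On arrays numbered 5 the fed Ctse difference was 0.65 and on those numbered 7 it was -0.49, whereas the fasted difference was 1.93 and 2.56 (2 arrays per group at each number). For Cpne5 the fed differences were -0.12 and 0.01 and the fasted ones 1.25 and 1.46. Each letter in the array names occurs in 1 group, so letter and group cannot be told apart.

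**Figure D2:**
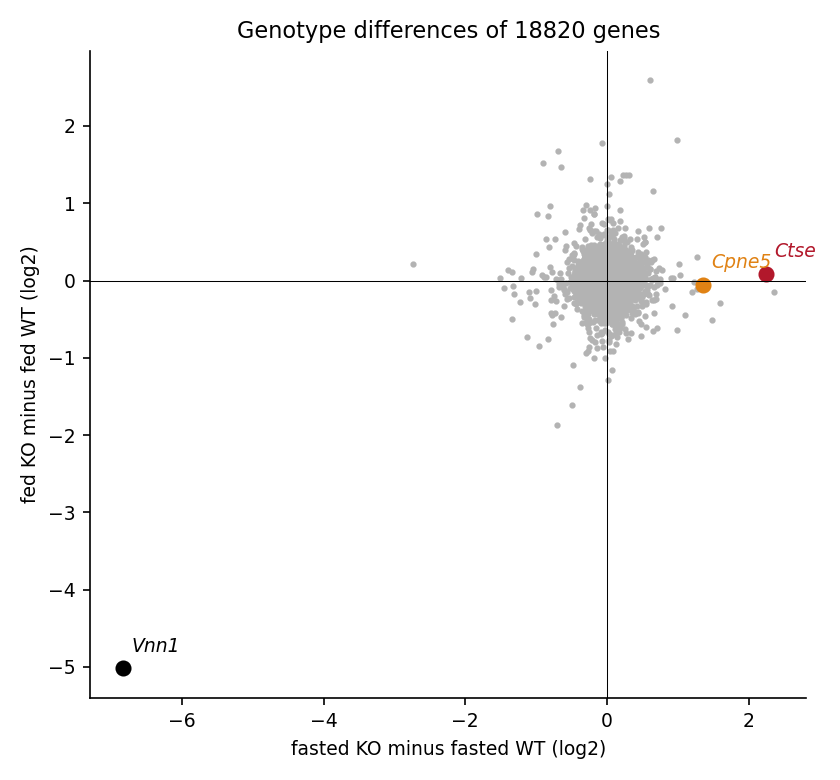
Each grey point is 1 of 18820 genes, by its log2 difference between fasted KO and fasted WT (x axis) and between fed KO and fed WT (y axis). Vnn1 lies low on both axes at -6.83 and -5.02, while Ctse (2.24 and 0.08) and Cpne5 (1.35 and -0.06) lie to the right near 0 on the fed axis.

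The response to fasting in each genotype is described only, because the fasted arrays took part in choosing the genes and each contrast shares arrays with that choice. In knockout liver Ctse was 5.62-fold higher fasted than fed (log2 difference 2.49, SE 0.33), and the fasted and fed arrays lay 1.59 apart. In wild type liver the log2 difference was 0.33 (SE 0.33), the arrays overlapped, and without fed WT 3 the difference was -0.03. Cpne5 was 2.97-fold higher in fasted than in fed knockout liver (log2 difference 1.57, SE 0.18). That fold may likewise understate the difference, as Cpne5 lay below the array medians in fed KO. In wild type liver its log2 difference was 0.16 (SE 0.18), and all 4 fasted WT arrays lay above all 4 fed WT arrays, by 0.06. That SE is shared by all groups, while the SD of Cpne5 was 0.58 in fasted KO, 0.06 in fasted WT and 0.02 in fed WT. It is thus too wide for the wild type difference and too narrow for the Cpne5 contrasts that hold fasted KO. In the fasting contrast of wild type liver limma called 7.61% of all genes. How many genes showed no overlap between fasted and fed arrays was not counted in either genotype, so nothing is read from these gaps. Centring every array on its median over the 18820 genes, not over all probe sets, gave a Cpne5 difference of 0.23 in wild type liver. The genotype difference was larger in fasted than in fed liver by 2.16 for Ctse (SE 0.47) and by 1.41 for Cpne5 (SE 0.26), again without a test, as this holds the contrast used for the choice.

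The other proteases related to cathepsin E were then examined. Of the 7 other measured aspartic protease genes 0 passed the test in fasted KO against fasted WT, where 0.0159% of all genes did, and their median log2 difference was -0.01 (range -0.07 to 0.41), against 0.00 over all genes. Cathepsin D, encoded by Ctsd, the abundant lysosomal relative, lay at 11.25 ± 0.04 in fasted KO against 11.30 ± 0.07 in fasted WT (SD, n = 4; limma adjusted p = 0.975). The pepsinogen genes Pga5 and Pgc, the chymosin gene Cym and Napsa, which encodes napsin A, lay below the array median on all 16 arrays. Bace1, the beta-secretase gene, lay at 9.71 ± 0.13 in fasted KO against 9.30 ± 0.37 in fasted WT (SD, n = 4), a log2 difference of 0.41 that did not pass (limma adjusted p = 0.867). In fed KO against fed WT 0 of the 7 passed, against 0.00531% of all genes.

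Bace1 rose on fasting in both genotypes, as did 4.53% of all genes in knockout and 3.34% in wild type liver. It gave 9.90, 9.63, 9.70 and 9.63 on fasted KO 1 to 4 against 8.69, 8.92, 8.28 and 8.36 on fed KO 1 to 4, and 9.69, 9.52, 9.13 and 8.87 on fasted WT 1 to 4 against 8.71, 8.57, 8.43 and 8.61 on fed WT 1 to 4. Fasted and fed arrays did not overlap in either genotype, a pattern not counted over all genes, so nothing is read from it. The log2 rise was 1.15 in knockout (SE 0.16, limma adjusted p = 2.26e-04) and 0.72 in wild type liver (SE 0.16, limma adjusted p = 0.0104). Bace2 fell by 0.33 on the log2 scale in knockout liver (limma adjusted p = 0.0424), where 4.89% of all genes fell, a call lost in 15 of 31 other settings, and did not pass in wild type (log2 difference -0.27, limma adjusted p = 0.115). The remaining 5 genes passed in neither genotype, with shares of all genes called of 9.42% in knockout and 7.61% in wild type.

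Of 11 measured genes for cysteine and serine cathepsins, which digest proteins in lysosomes and granules, 0 passed in fasted KO against fasted WT, with a median log2 difference of -0.07 and a range of -0.20 (Ctsk) to 0.09 (Ctso). Likewise 0 passed in fed KO against fed WT (median -0.12, range -0.24 for Ctsz to 0.05 for Ctso). On fasting 1 of the 11 rose in each genotype, which at 4.53% of all genes in knockout and 3.34% in wild type liver says little about the list. It was Ctsf, which rose by 0.37 in knockout (limma adjusted p = 0.0128) and 0.39 in wild type liver (limma adjusted p = 0.0129). The summed intensity of the 11 genes was 12388 to 14565 in fasted KO, 12839 to 14456 in fasted WT, 11825 to 13580 in fed KO and 12851 to 13686 in fed WT. Of 8 measured genes for cystatins, stefins and related inhibitors 0 passed between the genotypes in either state, and the largest fasted difference was in Cst7, at -0.28 (limma adjusted p = 0.842).

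Cathepsin E is known for a part in antigen processing, so the MHC class II genes were set beside it. Of 10 measured genes 0 passed in fasted KO against fasted WT, where 0.0159% of all genes did, with a median log2 difference of -0.07 and a range of -0.26 to 0.13. The antigen-binding chain gene H2-Aa, named after its values were seen, lay at 8.38 ± 0.52 in fasted KO against 8.57 ± 0.63 in fasted WT, and at 8.09 ± 0.64 in fed KO against 9.09 ± 0.46 in fed WT (SD, n = 4). In fed liver the median of the list was -0.42, against -0.01 over all genes, and 4 of its 10 genes had an unadjusted p under 0.05, against 1084 of 18820 overall. After adjustment 0 of the 10 passed (lowest limma adjusted p = 0.855), where 0.00531% of all genes did. The summed intensity was 4072 on fasted KO 2, against 2224 to 2361 on the other fasted KO arrays. Ctse was also highest on fasted KO 2, and without that array its log2 difference in fasted liver was 2.16.

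The other copines were set beside Cpne5. Of the 7 other measured copine genes 0 passed in any of the 4 comparisons, where 0.0159% (fasted genotype), 0.00531% (fed genotype), 9.42% (fasting in knockout) and 7.61% (fasting in wild type) of all genes did, so that a count of 0 says little about copines. Their median log2 difference in fasted KO against fasted WT was 0.00, with a range of -0.28 to 0.19. Cpne3, which encodes a copine found in many tissues, lay at 9.62 ± 0.20 in fasted KO against 9.63 ± 0.21 in fasted WT (SD, n = 4). Cpne2 lay at 7.66 ± 0.25 in fasted KO against 7.47 ± 0.34 in fasted WT, and Cpne8 at 5.82 ± 0.13 against 5.77 ± 0.09. Cpne4, Cpne6, Cpne7 and Cpne9 lay below the array median on all 16 arrays, and of these Cpne7 had the largest fasted difference (log2 -0.28, limma adjusted p = 0.850). On fasting Cpne3 differed by -0.32 in knockout (limma adjusted p = 0.0992) and -0.35 in wild type liver (limma adjusted p = 0.0823).

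**Figure D3:**
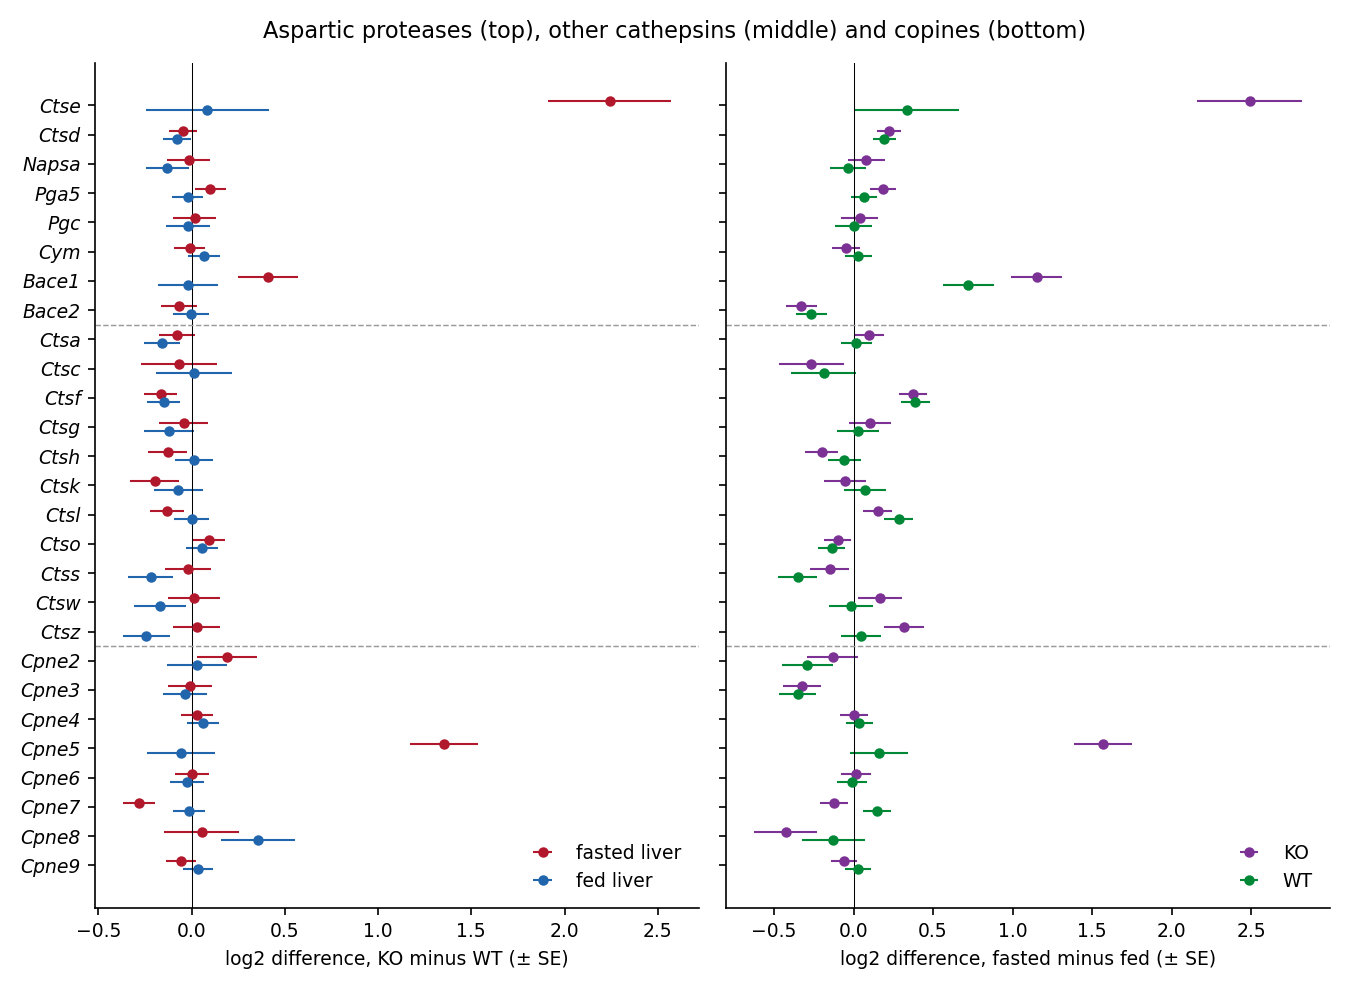
Log2 differences ± SE of the measured aspartic proteases, other cathepsins and copines, between KO and WT in fasted and fed liver (left) and between fasted and fed liver in KO and WT (right). Each SE is from the fit to all 16 arrays. Ctse at 2.24 and Cpne5 at 1.35 stand to the right in the fasted genotype comparison, with the next largest difference at 0.41 in Bace1.

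Both genes are known from cell types other than hepatocytes, so markers of such cells were examined in the same arrays. Of 121 measured markers of 15 cell types 0 passed in fasted KO against fasted WT and 0 in fed KO against fed WT, where 0.0159% and 0.00531% of all genes did. In the fasted comparison 8 of the 121 had an unadjusted p under 0.05, a share near that of all genes (1033 of 18820). Their part in the levels of Ctse and Cpne5 was not tested beyond these values. For gastric epithelium, a main site of cathepsin E, 8 of 10 markers lay below the array median on all 16 arrays, and the summed intensity was 172 to 190 in fasted KO, 162 to 221 in fasted WT, 179 to 199 in fed KO and 173 to 236 in fed WT. The gastrokine genes Gkn1, Gkn2 and Gkn3 and the mucin genes Muc5ac and Muc6 were among the 8.

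Erythroid markers gave sums over 7 genes of 661 to 925 in fasted KO and 710 to 860 in fasted WT, against 1172 to 1357 in fed KO and 1178 to 1354 in fed WT. The heme synthesis gene Alas2 fell on fasting by 0.80 on the log2 scale in knockout and by 0.82 in wild type liver (limma adjusted p = 1.16e-04 and 2.27e-04). In 5 of the 7 the level lay below the array median throughout, and globin genes were not measured among those with 1 symbol. B cell markers summed to 236 to 301 in fasted KO and 228 to 290 in fasted WT (9 genes, 6 below the median on all arrays), and Cd79a, Ms4a1 and Pax5 were among the 6. Dendritic cell markers summed to 319 to 394 in fasted KO and 311 to 408 in fasted WT (8 genes, 5 below). Macrophage and Kupffer cell markers summed to 4199 to 6583 in fasted KO and 4682 to 6513 in fasted WT (12 genes, 0 below).

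Neuronal markers, which bear on copine 5, summed to 156 to 189 in fasted KO and 144 to 187 in fasted WT, against 233 to 283 in fed KO and 208 to 267 in fed WT (5 genes, 4 below). The exception, the synaptotagmin gene Syt1, fell on fasting by 0.998 on the log2 scale in knockout and by 0.98 in wild type liver (limma adjusted p = 0.00101 and 0.00182). In all 15 lists the sums of the fasted KO arrays overlapped those of the fasted WT arrays. A sum mostly follows the brightest genes of its list. The mean log2 level of the 7 plasma cell markers was 5.14 to 5.42 in fasted KO and 5.44 to 5.62 in fasted WT, without overlap. The mean log2 levels of the other lists overlapped, and the plasma cell difference was not tested as a list. The pancreatic acinar list had the largest median difference, -1.16, which came with the high sum on fasted WT 4. Without fasted WT 4 the fasted differences were 2.25 for Ctse and 1.37 for Cpne5, as large as with it.

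The neighbours of each gene on its chromosome were examined next, from the order of protein-coding genes in RefSeq. Of the 3 genes on each side of Ctse on chromosome 1 (Srgap2, Fam72a and Avpr1b, and Rab7b, Slc26a9 and Pm20d1) 0 passed in fasted KO against fasted WT, with log2 differences of -0.11 to 0.23. Of the 5 measured neighbours of Cpne5 on chromosome 17 (Srsf3, Cdkn1a and Rab44, and Ppil1 and BC004004) 0 passed, with differences of 0.10 to 0.35. None passed in fed KO against fed WT (lowest limma adjusted p = 0.892).

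The neighbourhood of Cpne5 includes Cdkn1a, the cell cycle inhibitor gene, which fasting raised in both genotypes. Cdkn1a gave 10.48, 10.89, 9.36 and 10.26 on fasted KO 1 to 4 against 8.67, 7.89, 6.20 and 6.03 on fed KO 1 to 4. It gave 10.12, 9.77, 10.42 and 10.20 on fasted WT 1 to 4 against 6.75, 7.68, 5.65 and 6.99 on fed WT 1 to 4. Its log2 rise was 3.05 in knockout (limma adjusted p = 0.00103) and 3.36 in wild type liver (limma adjusted p = 7.81e-04), and its genotype difference in fasted liver was 0.12 (limma adjusted p = 0.996). In wild type liver, where Cdkn1a rose by 3.36, the level of Cpne5 differed by 0.16. Of the other neighbours of Cpne5, BC004004 rose by 0.44 on fasting in knockout liver (limma adjusted p = 0.0328), a call lost in 9 of 31 other settings, and had a log2 difference of 0.11 in wild type liver (limma adjusted p = 0.667). Srsf3, a splicing factor gene, rose by 0.46 in wild type liver (limma adjusted p = 0.0284), a call lost in 7 of 31 settings, and had a log2 difference of 0.39 in knockout liver (limma adjusted p = 0.0559). Near Ctse, Pm20d1, an N-fatty acyl amino acid synthase gene, fell by 0.56 on the log2 scale in fasted wild type liver (limma adjusted p = 0.0113) and by 0.43 in knockout liver (limma adjusted p = 0.0419), the second a call lost in 11 of 31 other settings.

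**Figure D4:**
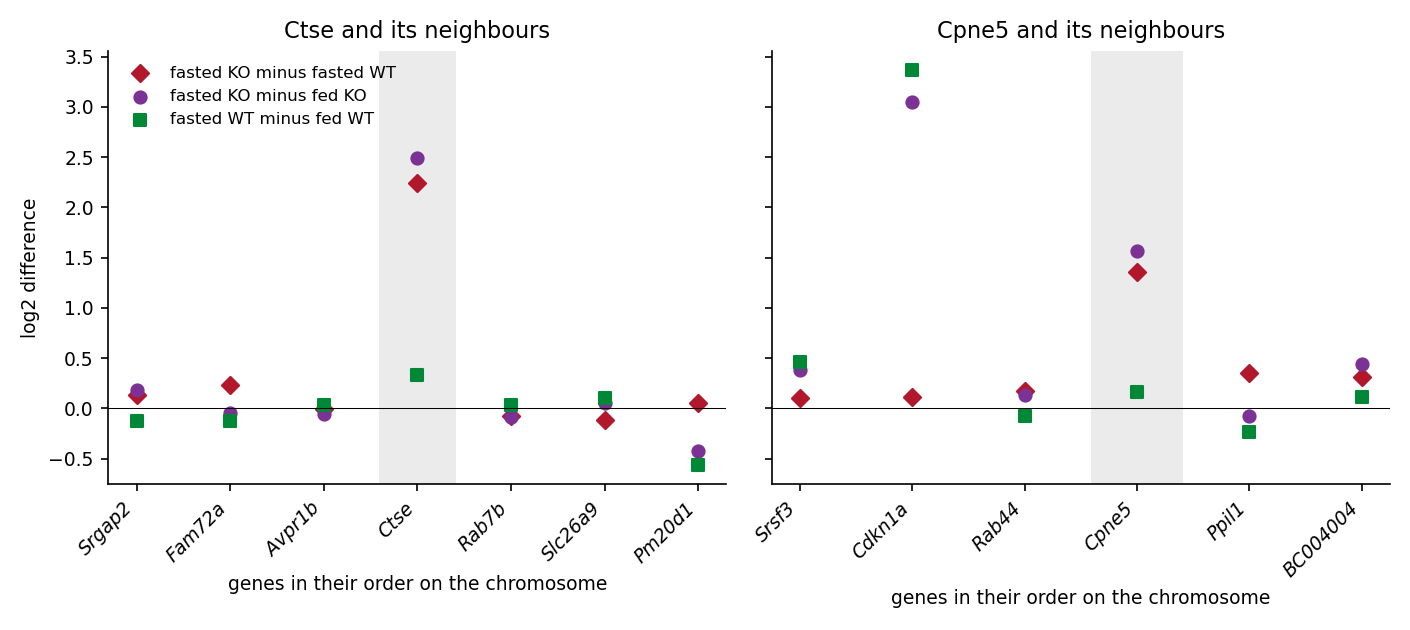
Log2 differences of Ctse (left) and Cpne5 (right), each shaded, and of the measured protein-coding genes beside them in chromosomal order. Diamonds are fasted KO minus fasted WT, circles fasted minus fed in KO and squares fasted minus fed in WT; Cdkn1a lies at 3.05 and 3.36 on fasting with a genotype difference of 0.12, while the genotype differences of Ctse and Cpne5 are 2.24 and 1.35.

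Finally, the genes most alike to each were named by Pearson correlation of levels over the 16 arrays, among 9490 genes whose highest group mean lay above the median gene. For Ctse the 8 most alike had r from 0.80 to 0.87, led by Cwc27, a spliceosome-associated cyclophilin gene (0.870), Tmem135 (0.868), Ppp1r21 (0.858), the Golgi SNARE gene Gosr1 (0.847) and Def8 (0.838). For Cpne5 they had r from 0.84 to 0.89, led by the chromatin protein gene Hmgb3 (0.894), Mrfap1 (0.884), Tmem135 (0.877), the diphthamide synthesis gene Dph3 (0.870) and the lysyl-tRNA synthetase gene Kars (0.852). Tmem135 and Gosr1 were named for both. The correlations are descriptions, since all arrays share the 4 groups and the genes were ranked for likeness.

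The alike genes differed far less in size than Ctse and Cpne5, which were chosen for that difference, whereas r takes no account of size. Over the 14 genes the log2 difference between fasted KO and fasted WT ranged from 0.08 to 0.48, and the largest was in the ephrin ligand gene Efna5. Tmem135, a membrane protein gene, lay at 9.66 in fasted KO, 9.32 in fasted WT, 9.17 in fed KO and 9.06 in fed WT. In 8 of the 14, all fasted KO arrays lay above the other 12, as in 0.531% of all genes. Ranking by likeness to Ctse and Cpne5 favours genes of that pattern, so nothing more is read from the count. Over the 12 arrays outside fasted KO the correlations with Ctse were 0.36 to 0.81, highest for Ppp1r21, and those with Cpne5 were -0.06 to 0.57, highest for Mrfap1.

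**Figure D5:**
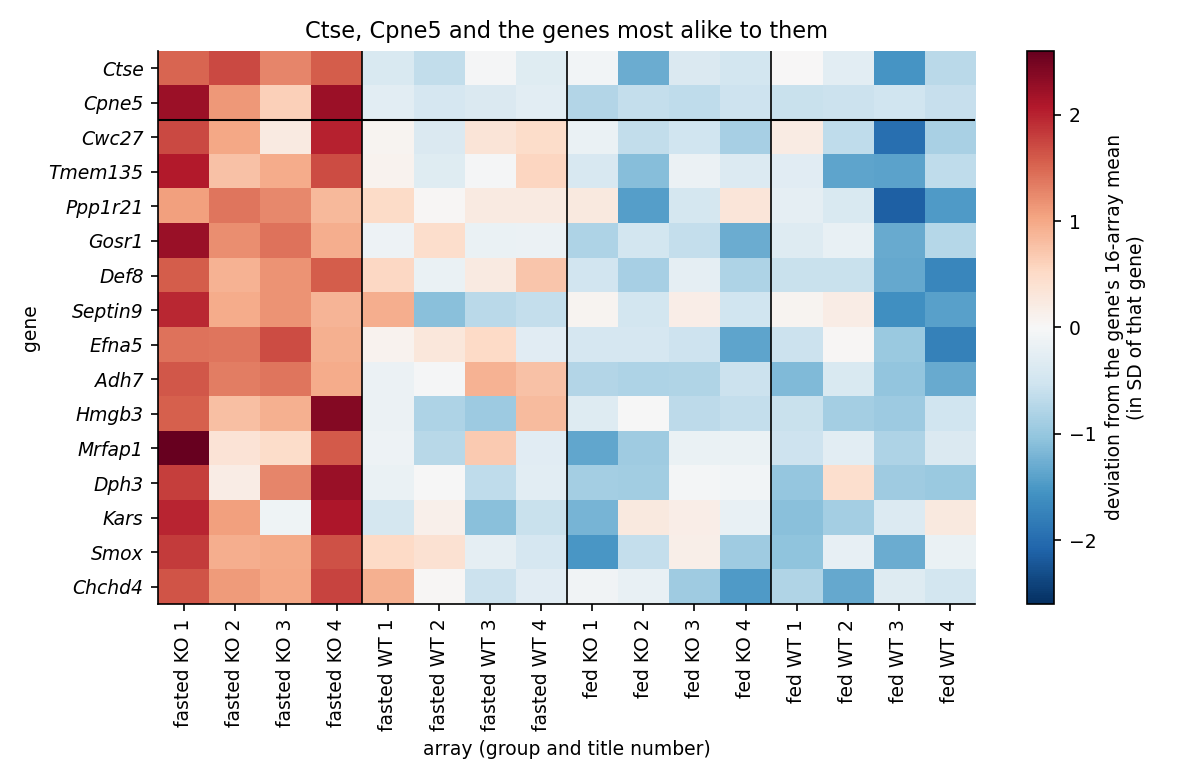
Deviation of each gene from its own mean over 16 arrays, in units of that gene's SD, for Ctse and Cpne5 (above the line) and the 14 genes most alike to them. The 4 fasted KO columns are above the mean in nearly all genes, and Ctse is lowest on fed WT 3 (4.81), where Cwc27, Ppp1r21 and Tmem135 are among the genes also at their lowest.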

How the data were processed

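Liver RNA was hybridised to 1 array per sample. The deposited values are log2 intensities, normalised by RMA per the submitters' processing notes, and the sources used here give neither its version nor the array's genome build. Of 35556 probe sets, 21218 had 1 symbol in the platform annotation, 1881 had several and 12457 were not listed. Among those with 1 symbol (21185 matched RefSeq by Entrez ID) the one with the highest mean stood for its gene. Dim genes were kept.

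A mean per group was fitted to all 16 arrays with limma 3.58.1 in R 4.3.3 (empirical Bayes, two-sided, Benjamini-Hochberg over 18820 genes), and a gene was called at an adjusted p below 0.05. On simulated data with 50 genes planted per size in the fed genotype comparison it returned 96% at 2-fold and 78% at 1.5-fold. These rates are averages over randomly drawn genes, with all sizes planted together, which eases the adjusted threshold. They do not give the rate for Ctse, whose fed difference had an SE of 0.33, or for Cpne5. The members, the 5 family and 15 marker lists and the rules were chosen with earlier results of these data known. The naming rule took the measured proteases, cathepsins and copines, called genes of other lists (up to 3), the 3 chromosomal neighbours on each side, the 5 genes on each side in the order of the fasted difference, the 8 genes most alike by r (no predicted or receptor genes) and Vnn1, and the text gives a selection of them. Alternatives covered scaling, dim genes, probe sets, priors, weights, arrays fitted, blocks and each array left out. Promoter and gene order are from RefSeq on GRCm38.p6.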

Additional observations from a re-analysis of the deposited data

Results flagged for a closer look

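No array of Ctse or Cpne5 stood apart within its group, where the widest gap took 0.660 of a group's range. Over 124 groups of 4 arrays examined, 10 held an array far from the other 3, where chance gives about 1 in 20, and all 10 were summed linear intensities of gene lists. The acinar sum was 4158 on fasted WT 4, against 163 to 173 on the other fasted WT arrays. On fasted KO 2 the sums were high for cysteine and serine cathepsins (14565, against 12388 to 12710), MHC class II genes (4072, against 2224 to 2361) and T and NK cell markers (280, against 202 to 212). On fed KO 4 the aspartic protease sum was low (2332, against 2780 to 2849) and the neutrophil sum high (201, against 133 to 141). On fed KO 2 the macrophage sum was low (5641, against 6525 to 6666) and the adipocyte sum high (96.2, against 66.6 to 71.7). The cathepsin inhibitor sum was low on fasted WT 4 (3965, against 4206 to 4251), and the T and NK cell sum high on fed WT 3 (271, against 257 on the other fed WT arrays).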

How the results depend on the processing

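Over 31 alternative settings the fasted difference between knockout and wild type kept its direction, from 2.12 to 2.37 for Ctse and from 1.19 to 1.58 for Cpne5, which was not among the genes left by a filter at the 50th percentile of mean level. As this contrast chose the genes, these ranges are a description and no separate evidence. Some settings could not move it, such as those that leave out a fed array or change only the prior. The difference of fasted from fed knockout liver was 2.20 to 2.69 for Ctse and 1.41 to 1.79 for Cpne5. The fed difference was not called for either gene in any setting (adjusted p 0.857 to 0.999 for Ctse and 0.931 to 0.997 for Cpne5), but the sign turned for Ctse without fed WT 3 (-0.28) or fed KO 1 (-0.11), within a range of -0.28 to 0.38 with 1 array left out. The Ctse difference between fasted and fed wild type liver was -0.029 to 0.58 with 1 array left out, turning without fed WT 3. For Cpne5 it was 0.23 after centring each array on its median over the measured genes. The cause was not tested for any of these.

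No pairing by title number was seen, as same-numbered arrays deviated together at r over 0.1 in 4 of 24 pairs (range -0.22 to 0.21). These correlations cannot exclude a pairing. With that number as a replicate block the fed differences were 0.08 for Ctse and -0.06 for Cpne5, as without it (limma adjusted p = 0.978 and 0.977). Every group holds the same title numbers, so the block could change only the error and not the differences. It changed no call of either gene.

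Counts of genes called moved as follows. In fasted KO against fasted WT 1 gene was called, against 3, when fasted WT 4 and fed KO 4 were dropped and also when the 3 arrays with a name ending in 2 were dropped, and 1 to 5 with 1 array left out (1 without fasted WT 2, 5 without fasted WT 1 or fasted KO 2). In fed KO against fed WT 2 were called, against 1, with median centring, a filter at the 50th percentile, a trended prior, a robust prior or array weights, 4 over every probe set of the table, 0 with the compared groups alone, 0 with those 3 arrays dropped, and 1 to 3 with 1 array left out (3 without fed KO 1, and 2 without fasted WT 3, fasted KO 4, fed WT 3 or fed WT 4). In fasted against fed knockout liver 964 were called with those 3 arrays dropped, against 1772, and 1216 to 1861 with 1 array left out. In wild type liver 829 were called with the compared groups alone, against 1432, and 880 to 1608 with 1 array left out, the lowest without fasted WT 4. The difference of the genotype effects called 0 genes by limma (924 at an unadjusted p under 0.05), and 1 without fasted KO 3. The likeness of the named genes stayed within its interval in the settings run for it, with r from 0.76 to 0.94. The number of arrays and, for Cpne5, levels under the array medians in 3 groups limit these values.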
